A study of Mus musculus with 2 samples.

Results

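The accessible chromatin of 10 genes of the circadian clock and of the glucocorticoid response was followed in basal cells of mouse skin: Clock, Per1, Per2, Per3, Cry1, Nr1d1 and Dbp of the clock, and Nr3c1, Fkbp5 and Zbtb16 of the glucocorticoid response. A peak was a member if it overlapped 1 of these genes, or lay within 50 kb with that gene as the nearest protein-coding gene. This gave 93 of the 84591 nuclear peaks in the deposited table, 74 inside the genes and 19 outside. The control library came from wild-type epidermis and the other from epidermis with ablation of the basal lineage, each from 50000 sorted cells. Both sorts took cells with high α6 integrin, without CD34 or Lrig1, and with the YFP, GFP and RFP reporters of tracing from K14, a keratin gene of the basal layer. The labels used here name neither the agent of ablation nor the time after it, the age of the mice, whether animals were pooled, or the hour of tissue collection. With 1 library per group there is no spread between animals, no difference was tested, and intervals cover counting error only.

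ATAC-seq reads open DNA from where a transposase can insert its adapters. The clock is a feedback loop. The CLOCK protein, with its partner BMAL1, binds E-boxes and activates the Per and Cry genes, whose proteins then inhibit the pair. In a second loop the nuclear receptor NR1D1 (REV-ERBα) represses Bmal1, and DBP activates genes through D-boxes. Glucocorticoids act through the receptor NR3C1, which binds DNA when it holds hormone. FKBP5, a co-chaperone that lowers the receptor's affinity for hormone, and ZBTB16, a zinc finger transcription repressor, are genes that glucocorticoids induce in many tissues, as is Per1. In skin the clock times proliferation and differentiation of epidermal stem cells, and glucocorticoids restrain inflammation and slow wound closure.

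Promoter windows from RefSeq (GRCm38.p6, 250 bases before to 50 after a start) were at hand for 7 of the 10 genes, in 10 windows, and each overlapped a peak. Motifs were searched on both strands in the 300 bases. The E-box, CACGTG, stood in 3 of the 10 windows against 7.15% of all 32851 windows, and the D-box, TTATGTAA, in 1 of 10 against 0.938%. The Rev-erb and ROR element, TAGGTCA, and the palindromic glucocorticoid response element stood in 0 of 10 windows, against 2.61% and 0.475% of all windows. A match is a description of letters and does not show binding. The 4 windows with a match are shown for their 250 bases before the start, 5′ to 3′ along the gene, with the E-box or D-box in capitals. They lie at chr11:69098699-69098948 on the plus strand for Per1, and on the minus strand at chr10:85185055-85185304 for Cry1, chr17:28486150-28486399 for Fkbp5 and chr4:151044666-151044915 for Per3.
Per1: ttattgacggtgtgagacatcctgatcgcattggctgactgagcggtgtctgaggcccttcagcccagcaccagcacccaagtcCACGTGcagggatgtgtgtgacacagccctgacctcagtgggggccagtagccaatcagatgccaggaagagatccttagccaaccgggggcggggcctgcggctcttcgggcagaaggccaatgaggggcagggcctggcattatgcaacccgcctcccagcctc
Cry1: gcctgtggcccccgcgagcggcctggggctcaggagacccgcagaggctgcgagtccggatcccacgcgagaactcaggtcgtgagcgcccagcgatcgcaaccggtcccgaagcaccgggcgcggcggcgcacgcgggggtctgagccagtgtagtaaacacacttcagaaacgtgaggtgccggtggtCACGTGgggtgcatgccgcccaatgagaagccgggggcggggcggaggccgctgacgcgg
Fkbp5: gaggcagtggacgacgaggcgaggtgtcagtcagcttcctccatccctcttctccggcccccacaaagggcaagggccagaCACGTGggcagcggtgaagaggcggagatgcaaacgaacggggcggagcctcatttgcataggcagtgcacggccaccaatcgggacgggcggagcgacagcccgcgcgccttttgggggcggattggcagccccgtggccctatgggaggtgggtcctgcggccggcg
Per3: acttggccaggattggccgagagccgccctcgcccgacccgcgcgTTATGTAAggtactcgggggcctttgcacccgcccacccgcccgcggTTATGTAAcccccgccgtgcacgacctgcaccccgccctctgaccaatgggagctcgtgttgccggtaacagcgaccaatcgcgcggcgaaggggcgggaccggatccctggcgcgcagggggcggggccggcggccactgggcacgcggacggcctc
The E-box began 166 bases before the start in Per1, 60 in Cry1 and 169 in Fkbp5. The D-boxes of Per3 began 205 and 158 bases before the start. The 3 genes with an E-box spread over the range of folds described next, with Cry1 near its low end, Per1 inside it and Fkbp5 near its high end.

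On the deposited scale the summed signal of Nr1d1, Cry1, Per1, Per2, Per3, Nr3c1 and Zbtb16 was lower in the ablation library by more than counting error, and that of Fkbp5 was higher. For each gene the normalized reads of its tested peaks were summed, and the fold is ablation over control with 1 added to each sum. Nr1d1 was lowest at 0.776-fold (0.737 to 0.817), then Cry1 at 0.808-fold (0.753 to 0.866), Per3 at 0.839-fold (0.766 to 0.918) and Per2 at 0.855-fold (0.807 to 0.905). Fkbp5 stood at 1.12-fold (1.06 to 1.18) and Clock at 1.12-fold (0.999 to 1.27). The interval lay below 1 for 7 of the 10 genes, against 32.1% of all 16270 genes with a tested peak, and above 1 for 1, Fkbp5, against 14.2%. Intervals narrow with more reads, so these shares also depend on the reads that each gene held. Summed log2 ratios were below 0 in 8 of 10 members, against 61.6% of all genes, and the members' median of -0.18 compares with -0.07 over all genes. These directions are those of the deposited scale: scaling instead to all reads of the table, those of mitochondrial DNA among them, shifts every log2 ratio by about -0.34 and puts all 10 genes below 0, Fkbp5 at -0.18 and Clock at -0.17.

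A ratio of 2 genes' folds needs no scaling factor. The fold of Fkbp5 exceeded that of Nr1d1 1.44 times (1.34 to 1.56) and that of Cry1 1.39 times (1.27 to 1.52), and its interval excluded 1 against each member but Clock. Among all 45 pairs of members the interval excluded 1 in 27. The share among pairs of all genes was not computed, and these intervals also narrow with more reads. Signal strength moves with the fold: over all tested peaks, the weakest decile had a median log2 ratio of 0.20 and the strongest one of -0.18. After a loess curve of the ratio on signal was subtracted, Cry1 stood at -0.20, Nr1d1 at -0.20 and Zbtb16 at -0.17, while Per2 was at -0.05, Nr3c1 at -0.02, Per3 at -0.09 and Per1 at 0.00. Dbp, at -0.05 on the deposited scale, changed sign to 0.11. Fkbp5 and Clock then stood at 0.21 and 0.29, where the median over all genes was 0.01. The part of signal strength in these values was not tested beyond this correction.

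**Figure D1:**
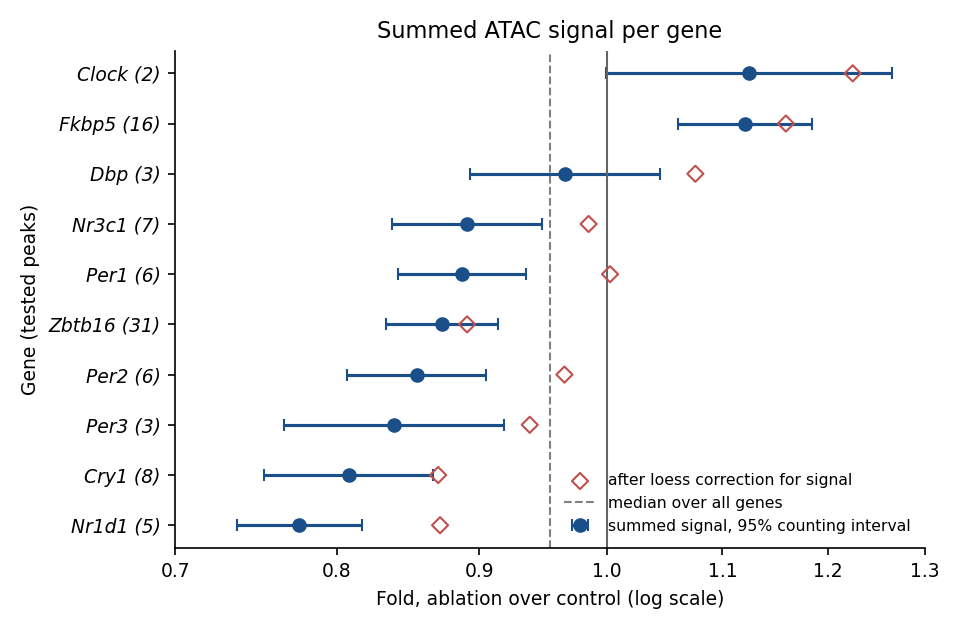
Fold of summed ATAC signal per gene, ablation over control, on a log axis, with 95% counting intervals as bars, 1 library per group, and the number of tested peaks in brackets. Nr1d1 is lowest at 0.776 and Clock and Fkbp5 are highest at 1.12; open diamonds are the values after the loess correction and the dashed line is the median over all genes.

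Few single peaks reached 2-fold. Of the 93 member peaks 87 passed the filter on low signal (a mean of at least 13.96 normalized reads, the 10th percentile), and 6 did not. Of the 87, 2 (2.3%) were at least 2-fold higher in ablation, against 4.48% of all 76147 tested peaks, and 0 were at least 2-fold lower, against 1.88%. The 2 peaks belong to Per3 and Zbtb16, so 2 of the 10 genes held such a higher peak and 0 a lower one, against 12.4% and 6.21% of all genes. At 1.5-fold, 6 were higher and 8 lower (6.90% and 9.20%), against 13.0% and 7.47% of all tested peaks. The median log2 ratio over the 87 was -0.14, against -0.01 over all tested peaks, and 53 lay below 0 (60.9%, against 51.3%). The interval of the fold lay below 1 in 25 peaks (28.7%, against 18.2%) and above 1 in 8 (9.20%, against 15.0%). In the 7 clock genes 22 of 33 peaks lay below 0, with a median of -0.22, and in the 3 glucocorticoid genes 31 of 54, with a median of -0.11. The 54 mix genes that lean apart: 12 of 16 peaks of Fkbp5 lay above 0, 3 of 7 of Nr3c1 and 8 of 31 of Zbtb16.

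**Figure D2:**
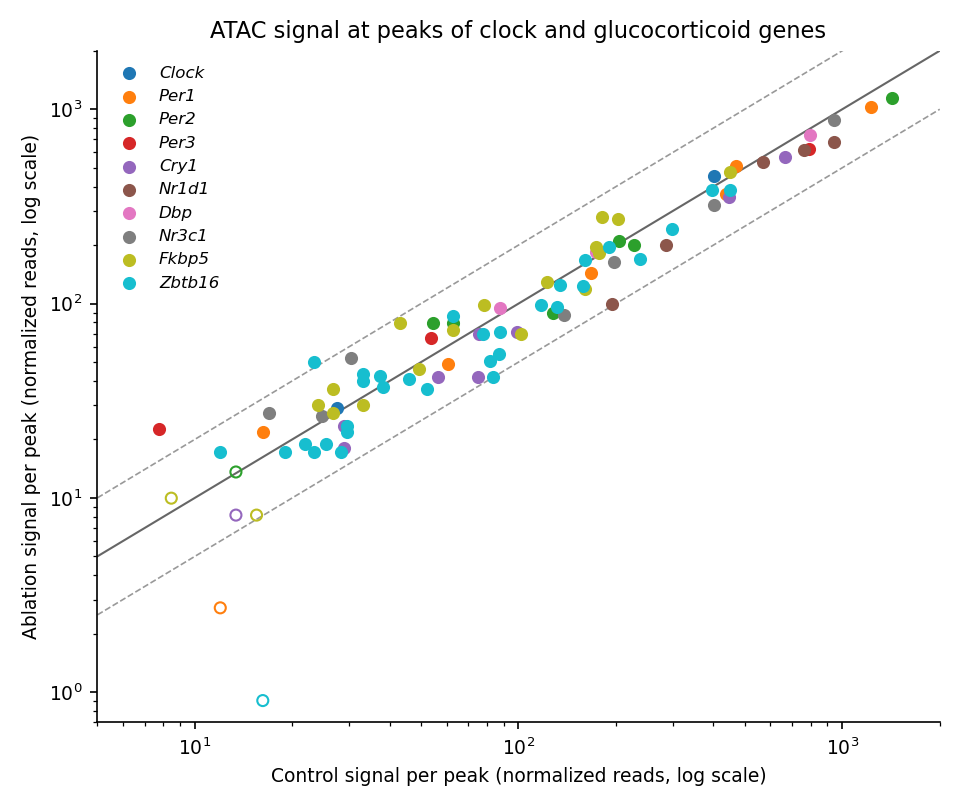
Control against ablation signal (normalized reads, log axes) for the 93 member peaks, 1 point per peak, coloured by gene; open points are the 6 peaks under the signal filter. The solid line marks equal signal and the dashed lines 2-fold; most points lie close to the solid line, with 2 filled points above the upper dashed line and 0 below the lower.

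The deposited table is a chain of 3 runs of peaks, and the first 2 lean in opposite directions: 90.8% of tested peaks in the first run and 18.4% in the second had log2 ratios above 0. In the third run 47.1% of tested peaks did. Of the member peaks 5 were first listed in the first run, 11 in the second and 77 in the third. Of the tested ones, 4 of 4 in the first run, 0 of 6 in the second and 30 of 77 in the third lay above 0. Of the 2 peaks past 2-fold, that of Per3 is from the first run and that of Zbtb16 from the third. How the runs were made is not given in the sources used here. All 6 members under the filter came from the first 2 runs. They include a Zbtb16 peak with 23 reads in control and 1 in ablation, 162 bp long within the gene, and a Per1 peak with 17 and 3 reads, both over 2-fold lower if the filter is lifted.

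Nr1d1 (chromosome 11, 98767932 to 98775377) had 5 peaks, all lower in ablation. It encodes REV-ERBα, the repressor of Bmal1. The start peak held 763.5 normalized reads in control and 616.8 in ablation, a fold of 0.808 (0.733 to 0.890). A stronger peak inside the gene, at 98773650 to 98774331, went from 941.4 to 681.2 (0.661 to 0.792), and another at 98772697 to 98773244 from 567.4 to 536.0 with an interval that includes 1 (0.848 to 1.05). The upstream peaks differed most. The peak 4.11 kb beyond the gene, at 98779486 to 98779783, held 194.8 normalized reads in control and 99.8 in ablation, from 276 and 110 reads (log2 ratio -0.96, fold 0.407 to 0.641), just short of 2-fold. The next, 7.78 kb beyond, held 285.8 and 201.4 (log2 ratio -0.50). Summed, these 2 stood at 0.627-fold (0.548 to 0.715), while the start peak and the 2 gene-body peaks stood at 0.808 and 0.807, so the upstream interval did not overlap that of either.

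Cry1 (chromosome 10, 85131700 to 85185054), a repressor of the CLOCK pair, had 8 tested peaks, all below 0, between log2 ratios of -0.83 and -0.11. Its start peak of 2097 bp held 663.3 normalized reads in control and 570.5 in ablation (0.776 to 0.952 as fold). The 5 tested peaks inside the gene beyond the start summed to 704.3 and 525.2, 0.746-fold (0.672 to 0.827). The lowest of these, at 85167533 to 85167793, went from 74.8 to 41.7 (106 and 46 reads, log2 ratio -0.83). The nearer of the 2 peaks outside, 26.6 kb away, had the ratio closest to 0, with 75.5 and 69.8 normalized reads. With the other, 36.0 kb away, they summed to 104.4 and 93.4, with an interval that includes 1 (0.689 to 1.16).

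**Figure D3:**
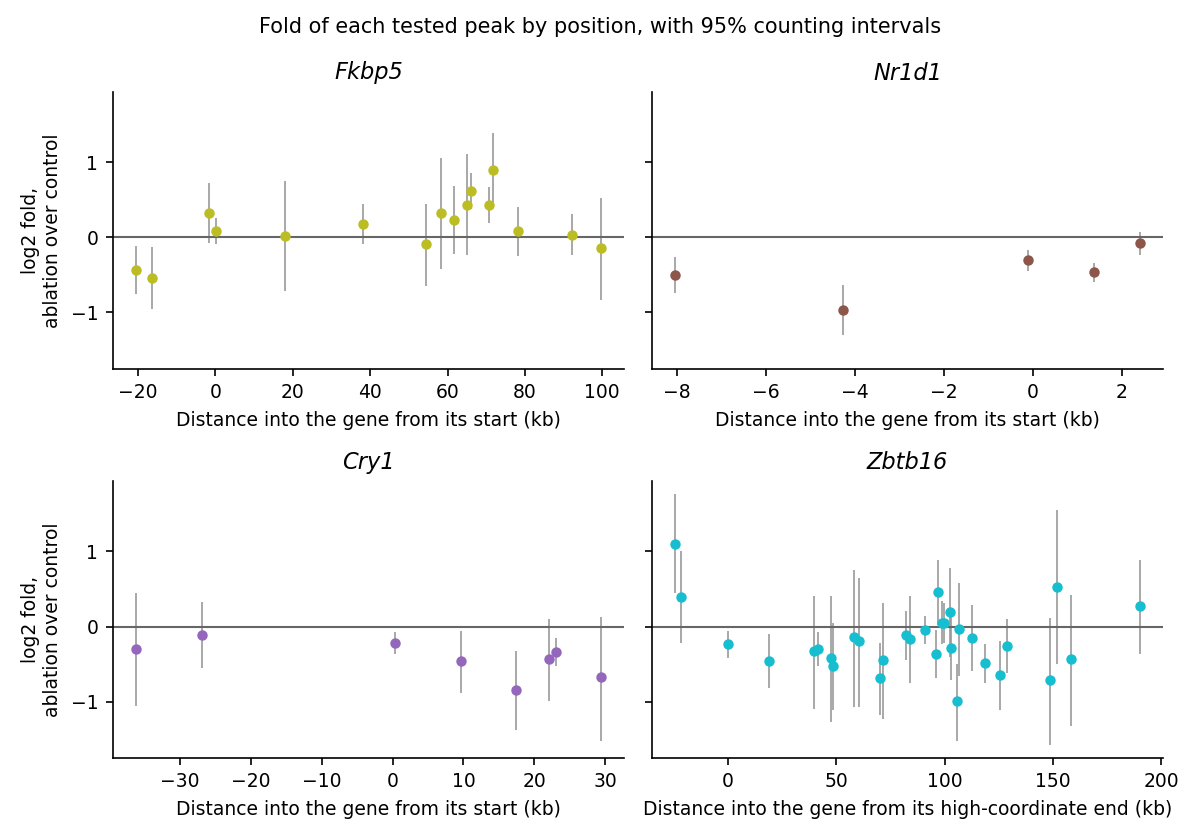
log2 fold of each tested peak against the distance of its centre into the gene (kb; negative is outside), for Fkbp5, Nr1d1 and Cry1 from the start and for Zbtb16 from the end with the higher coordinate, with 95% counting intervals as bars, 1 library per group. All 5 Nr1d1 and all 8 Cry1 points lie below 0, while the 7 tested Fkbp5 points in the gene over 55 kb from the start all lie above 0.

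The Period genes, whose proteins form the repressing complex with CRY, had their strongest peaks lower in ablation on the deposited scale. After the loess correction for signal, the log2 ratios of these peaks were -0.02 in Per1, -0.07 in Per2 and -0.15 in Per3. The summed rest of the tested peaks stood at 1.06-fold in Per1, 0.974-fold in Per2 with an interval that includes 1, and 1.44-fold (1.07 to 1.96) in Per3. Per1 (chromosome 11, 69095108 to 69109965) had its strongest peak at the low-coordinate end of the gene, 69094552 to 69095511, which went from 1227.9 to 1023.1 normalized reads, 0.833-fold (0.772 to 0.899). The gene lies on the plus strand, so that end is its annotated 5′ end, outside the promoter windows used here. The peak over the E-box window went from 438.9 to 366.4, 0.835-fold (0.735 to 0.948). Between them, the peak at 69096771 to 69097680 went the other way, from 470.7 to 508.8, with an interval that includes 1 (0.964 to 1.21). The 3 end and start peaks of Per1 together stood at 0.836-fold (0.786 to 0.889), and the 3 other tested peaks at 1.06-fold (0.952 to 1.18). Among its tested peaks the lowest and highest ratios came from weak peaks with intervals that include 1. The first, of 139 bp in the gene and from the second run of the table, went from 60.7 to 49.0 (log2 ratio -0.30). The other, 0.6 kb beyond the gene, went from 16.2 to 21.8 (log2 ratio 0.40).

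Per2 (chromosome 1, 91415977 to 91459351) showed a similar split. The peak at its high-coordinate end, the strongest of all 93, held 1424 normalized reads in control and 1136.5 in ablation, 0.798-fold (0.743 to 0.857). A small peak 2.81 kb into the gene from that end, from the second run of the table, went from 127.7 to 89.8 (log2 ratio -0.50). Deeper in the gene, the peak at 91437584 to 91438316 went from 54.3 to 79.8, 77 and 88 reads (log2 ratio 0.55, fold 1.07 to 2.02), the only Per2 peak whose interval lay above 1. The 5 tested peaks other than the end peak summed to 0.974-fold (0.883 to 1.07).

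Per3 (chromosome 4, 150997018 to 151044707) rested on its start peak, which holds the D-boxes shown above and 90.4% of the gene's signal. That peak went from 789.7 to 624.9, 0.792-fold (0.719 to 0.871), and it also overlaps the predicted gene Gm38529. The gene body peak at 151007097 to 151007319 went from 7.76 to 22.7 normalized reads, 11 and 25 reads. Its log2 ratio of 1.43 (fold 1.39 to 6.58) was the highest of all tested members, at a signal of 15.2, little above the filter, in the first run of the table, where all 4 tested members lay above 0. Without the shared start peak the gene's log2 ratio was 0.53, against -0.25 with it.

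Clock and Dbp, which activate transcription in the loop, had intervals that include 1. Other activator genes of the clock, which are no members, were mixed. Intervals lay below 1 for Npas2 (0.762-fold), Hlf (0.813), Tef (0.868) and Arntl (Bmal1, 0.873). That of Arntl2 (Bmal2) lay above 1 (1.10 to 1.41), and that of Rorb included 1 (0.814 to 1.38). Clock (chromosome 5, 76209868 to 76305603) had 2 peaks, 1 over its starts that went from 401.5 to 453.5 normalized reads, with an interval that just includes 1 (0.9996 to 1.28 as fold), and 1 in the gene with 27.5 and 29.0. It was the only start peak besides that of Fkbp5 with the higher signal in ablation. Dbp (chromosome 7, 45705100 to 45710203) went from 795.3 to 741.0 at its start (0.850 to 1.02), a peak shared with Car11, and from 87.5 to 95.2 and 173.6 to 184.1 at the 2 peaks inside the gene. Its summed fold of 0.966 (0.893 to 1.04) is the one nearest to the median of all genes.

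**Figure D4:**
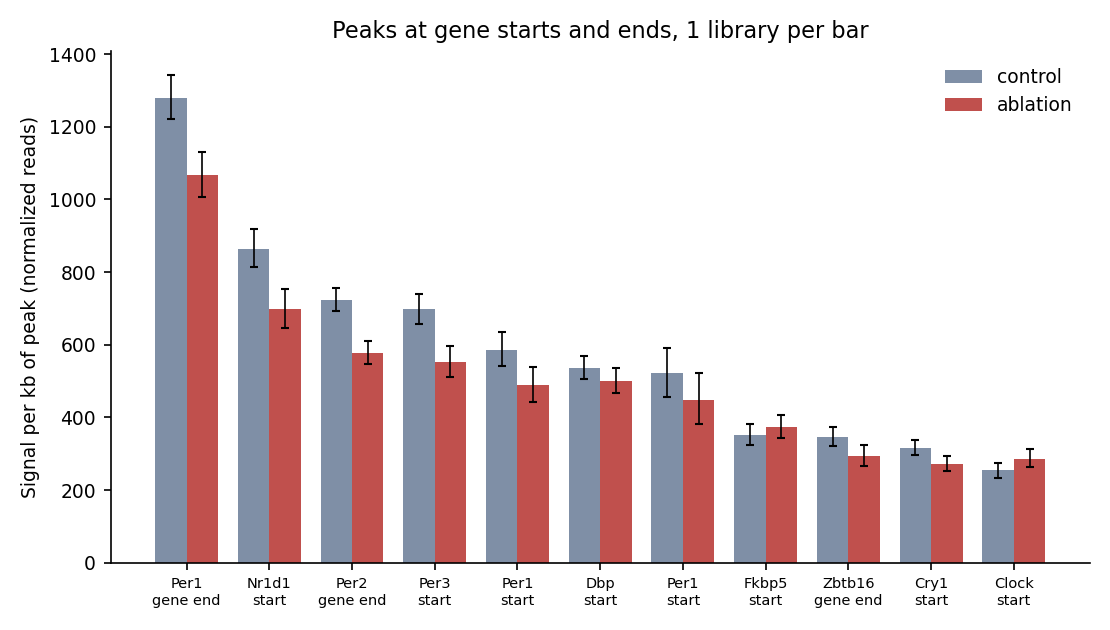
Signal per kb of peak (normalized reads) in control and ablation, ordered by the mean of the 2 libraries. Peaks lie over a RefSeq promoter window (start) or, holding no window, over an end of the gene. Per1 has both kinds, its end peak being at the annotated 5′ end. Bars are single libraries with 95% Poisson counting intervals. Control is the higher bar in 9 of the 11 peaks, and ablation in those of Fkbp5 and Clock. Most of the 11 lie in the strongest decile of signal, where the median log2 ratio of all tested peaks was -0.18.

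Per length, the peak at the 5′ end of Per1 was the most open of these, at 1280 normalized reads per kb in control and 1067 in ablation. The Nr1d1 start followed at 864.7 and 698.5. In control the end peak of Per2 and the start of Per3 came next, at 724.0 and 698.8 per kb with overlapping intervals, and their order was the same in ablation, 577.8 and 553.0, again with overlapping intervals. The 2 starts of Per1 (586.8 and 521.6 in control) and that of Dbp (536.3) also overlapped. The Fkbp5 start, at 352.3 and 373.9, and the Zbtb16 end, at 346.6 and 293.7, did not overlap in ablation but did in control. Cry1 (316.3 and 272.1) and Clock (254.0 and 286.8) were last and their order turned between the libraries, with intervals that overlapped in ablation and not in control. The log2 ratios of these 11 peaks ran from -0.34 to 0.18. After the loess correction they ran from -0.18 to 0.32, with Per1 at its end peak at -0.02, Per2 at -0.07 and Cry1 at -0.04. The Dbp start then joined those of Fkbp5 and Clock above 0, at 0.099.

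Fkbp5 (chromosome 17, 28398753 to 28486149) was higher in ablation inside the gene, with lower values at the farthest peaks beyond its start. Its start peak, with the E-box shown above, held 449.5 normalized reads in control and 477.1 in ablation (0.944 to 1.19 as fold). The 10 tested peaks of the gene body summed to 913.8 and 1170, 1.28-fold (1.18 to 1.38), and 9 of the 10 were above 0. Outside the gene 5 peaks summed to 551.8 and 498.9, 0.904-fold (0.809 to 1.01), an interval wholly below that of the gene body.

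The highest ratios lay in the far part of the Fkbp5 gene, where 7 tested peaks within 20.6 kb, 58.3 to 78.2 kb from the start, had log2 ratios of 0.08 to 0.88. This stretch was chosen after its values were seen. A peak 55.5 kb from the start, under the signal filter, had 22 reads in control and 9 in ablation (log2 ratio -0.85). The highest of the 7, at 28414195 to 28414636, went from 43.0 to 79.8 normalized reads, 61 and 88 reads (log2 ratio 0.88, fold 1.32 to 2.61). The peak at 28419579 to 28420755 went from 181.4 to 277.5, 257 and 306 reads (log2 ratio 0.61, fold 1.29 to 1.81), and that at 28415054 to 28415790 from 203.2 to 273.9 (log2 ratio 0.43, fold 1.14 to 1.59). These 3 had intervals above 1, and the 4 others did not. On the other side, 16.1 and 20.0 kb beyond the start, the peaks went from 101.6 to 69.8 and from 160.9 to 118.8, with log2 ratios of -0.53 and -0.43 and intervals below 1. Whether peaks of the gene body lie in exons or introns was not resolved, and no motif was searched in them, since sequence was used for promoter windows only.

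Nr3c1 (chromosome 18, 39410545 to 39519421), the receptor itself, had 7 tested peaks, 3 above 0. Its strongest, the longest of all members at 2967 bp, lies inside the gene at 39488917 to 39491884 and went from 943.5 to 883.4 normalized reads with an interval that includes 1 (0.861 to 1.02). No promoter window was at hand for Nr3c1, so whether this or another of its peaks lies at a start was not resolved. A weak gene-body peak at 39483682 to 39484044 went from 30.3 to 52.6, 43 and 58 reads (log2 ratio 0.77, fold 1.15 to 2.63). The 4 peaks outside the gene summed to 760.7 and 596.8, 0.785-fold (0.711 to 0.865), against 0.972-fold (0.897 to 1.05) over the 3 inside. The lowest of those outside, 38.3 kb away at 39557705 to 39558788, went from 138.3 to 87.1 (log2 ratio -0.66, fold 0.488 to 0.808). With the peaks inside the gene alone, its log2 ratio of -0.17 became -0.04.

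Zbtb16 (chromosome 9, 48651797 to 48836225) had the most peaks of the members, with 31 tested over 184 kb of gene and its flanks. It encodes the repressor PLZF. The peak at its high-coordinate end went from 451.6 to 382.8 normalized reads, 0.848-fold (0.748 to 0.960), and the 27 other tested peaks in the gene stood at 0.856-fold (0.814 to 0.901), with 5 of 27 above 0. The lowest tested peak, at 48730275 to 48730893, went from 83.3 to 41.7, 118 and 46 reads (log2 ratio -0.98, fold 0.348 to 0.710). All 3 peaks outside the gene were above 0 and summed to 89.6 and 133.3, 1.48-fold (1.17 to 1.90). Of these the peak 24.3 kb away, at 48860503 to 48860888, was the second member past 2-fold, from 23.3 to 49.9, 33 and 55 reads (log2 ratio 1.07, fold 1.37 to 3.41). The others had intervals that include 1 (0.779 to 1.86 and 0.859 to 2.01). All 3 are weak, in decile 4 of signal, where the median log2 ratio of all tested peaks was 0.12.

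Fkbp5 and Zbtb16 are both genes that glucocorticoids induce in many tissues. Their summed folds differed 1.28 times (1.19 to 1.38), and the part of glucocorticoids in either was not tested. Inside the genes and away from start or end peaks they stood at 1.28-fold and 0.856-fold, with intervals that did not overlap.

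Of 20 other clock genes 15 had summed log2 ratios below 0 and 5 above, where 61.6% of all genes lay below 0, with a median of -0.23 (-0.07 over all genes). The interval of the fold lay below 1 in 14 and above 1 in 2, against 32.1% and 14.2% of all genes. Npas2, which can replace Clock as partner of BMAL1, was lowest at 0.762-fold (0.716 to 0.812), followed by the repressor gene Cry2 at 0.797-fold (0.752 to 0.844). Highest were Arntl2 (Bmal2), a paralogue of Bmal1, at 1.24-fold (1.10 to 1.41) and Timeless, which binds the Period and Cryptochrome proteins, with 179.2 and 196.8 normalized reads (0.912 to 1.32 as fold). The list's 198 tested peaks held 5 at least 2-fold higher and 7 at least 2-fold lower, against 4.48% and 1.88% of all tested peaks, with a median log2 ratio of -0.19. After the loess correction 15 of the 20 genes were still below 0, against 47.0% of all genes, with a median of -0.09.

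Of 24 other glucocorticoid pathway genes 22 had a tested peak (Tat and Sult1e1 had none), 17 below 0 and 5 above, against 61.6% of all genes below 0, with a median of -0.15. The interval lay below 1 in 16 and above 1 in 2, against 32.1% and 14.2% of all genes. Hsd11b1, the enzyme that regenerates active glucocorticoid from its inactive form, was lowest at 0.327-fold (0.155 to 0.575), from a single peak with 54 reads in control and 13 in ablation. Klf9, a transcription factor gene that glucocorticoids induce, went from 3761 to 2919 normalized reads over 7 peaks, 0.776-fold (0.743 to 0.811). Highest were the coactivator gene Ncoa1 at 1.14-fold (1.00 to 1.30) and Ddit4, a stress-induced inhibitor of mTOR signalling, at 1.13-fold (1.06 to 1.21). The 164 tested peaks held 4 at least 2-fold higher and 3 lower, against 4.48% and 1.88% of all tested peaks. After the loess correction 11 of the 22 genes were below 0, against 47.0% of all genes, with a median of -0.01.

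**Figure D5:**
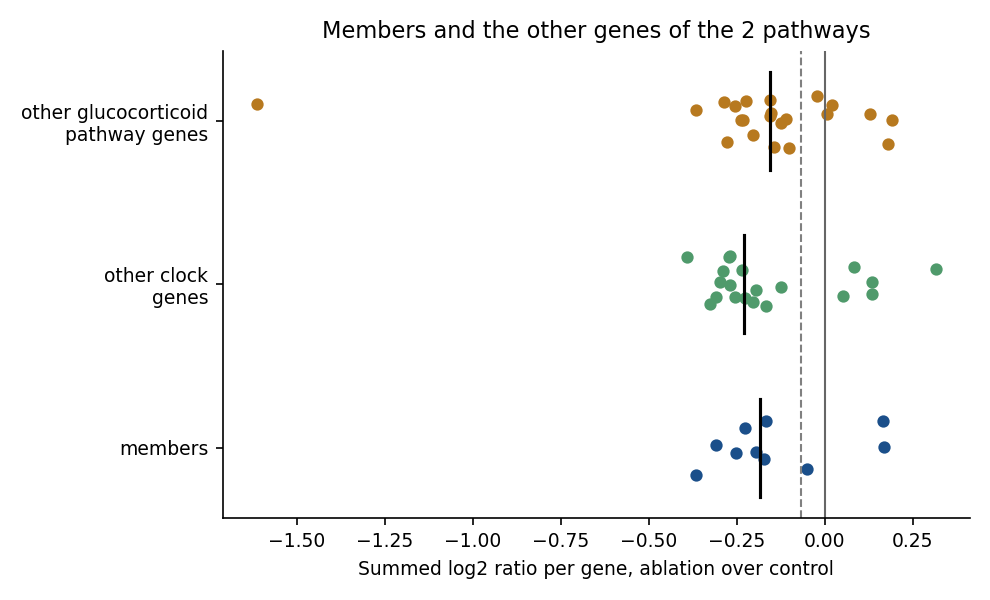
Summed log2 ratio of ablation to control per gene, 1 point per gene, for the 10 members, 20 other clock genes and 22 other glucocorticoid pathway genes, 1 library per group; vertical bars are list medians (-0.18, -0.23 and -0.15) and the dashed line is the median over all genes (-0.07). Vertical scatter within a list has no meaning; most points of each list lie left of 0.

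The 2 libraries held 17056996 and 12463908 reads in nuclear peaks. All 6 basal keratinocyte markers had open peaks, from 1307 to 3144 normalized reads per gene in control and 1196 to 2932 in ablation. Markers of other cells were mixed. Of 4 endothelial, 4 fibroblast, 4 melanocyte and 3 T cell markers, Cdh5, Col1a2, Tyr, Cd3g and Trdc had no tested peak, while Pecam1 and Pmel had strong ones. Summed over each list, control and ablation held 2764 and 2784 normalized reads at endothelial markers, 575.1 and 592.3 at fibroblast markers, 3189 and 2851 at melanocyte markers and 197.6 and 266.7 at T cell markers. Langerhans and myeloid markers held 550.4 and 469.8, bulge markers 1052 and 1267, and suprabasal keratinocyte markers 1601 and 1289. Their part in the members' values was not tested.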

How the data were processed

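ATAC-seq of sorted basal epidermal cells gave 1 control and 1 ablation library. The submitters' processing notes name build mm10 and, with no role, MACS2 2.1.0.20151222, Bowtie2 2.3.4.2, HTSeq, Trimmomatic and Picard. A normalized signal for each peak and library was deposited by the authors, with neither its scaling nor the choice of peaks stated. All values (100%) were whole multiples of 1 step per library (0.706 in control, 0.907 in ablation; tolerance 0.1 read), so whole reads were recovered. With 1 library per group a count test has no residual spread and none was run. The control column carries the number 2, unlike its title, and the other says Exp and was taken as ablation. Columns left unused numbered 0.

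Of 116411 rows 31817 exact repeats were dropped, and 3 mitochondrial peaks were left out, of 84594. Coordinates are as deposited; whether starts count from 0 or 1 is not stated. Log2 ratios used a pseudocount of 1. Genes came from RefSeq GRCm38.p6, all listed genes matching by symbol (Bmal1 and Bmal2 as Arntl and Arntl2), and peaks were given to each protein-coding gene they overlap or, failing that, to the nearest one at most 50 kb off. Intervals of folds are 95% exact Clopper-Pearson intervals of the reads; those of ratios of folds are exact conditional ones; PCR copies are not independent molecules. A count of 0 (3 reads) allows 2.12 normalized reads in control and 2.72 in ablation. By rule all members are named. For each, the peak of highest signal, the start peak, the peaks of highest and lowest ratio and those past 2-fold are given. Of each other list the 2 highest and 2 lowest genes are named. Further peaks, and the list genes Hlf, Tef, Arntl and Rorb, were chosen after their values were seen. Members, lists and rules were chosen with earlier results of these data known. Steps were tested on simulated reads. Tables were made in Python 3.11.15 with pandas 2.3.3 and numpy 2.4.6, intervals with scipy 1.17.1, the loess curve with statsmodels 0.14.6 and plots with matplotlib 3.10.9.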

Additional observations from a re-analysis of the deposited data

Results flagged for a closer look

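Mitochondrial DNA, in no comparison above, held 31.2% of the ablation library's reads in the table and 7.31% of those in control. This was picked out because it is a signal higher than in control that lies outside the nuclear peaks. Its part in the members' values was not tested. No group has the 4 samples needed to look for a sample far from the others.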

How the results depend on the processing

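No paired analysis was possible because each group holds 1 library. The count of member peaks at least 2-fold higher (2) was 1 with a pseudocount of 5, with the filter at the 25th percentile, with the table total, after the loess correction, with overlapping peaks only and with the third run of the table only, and 6 at 1.5-fold. The count at least 2-fold lower (0) was 2 without the filter, 5 with the table total, 1 after loess and 8 at 1.5-fold. The median log2 ratio of member peaks (-0.14) was -0.47 with the table total and -0.056 with the nuclear total. The median over member genes (-0.18) was -0.52 with the table total, -0.094 with the nuclear total, -0.036 after loess, -0.23 with the strongest peak alone and -0.084 with the median of the peaks. The other lists were recomputed as a choice made after seeing the data. For other clock genes (-0.23) the values were -0.57, -0.14 and -0.092 with the table total, nuclear total and loess, -0.25 with overlapping peaks only and -0.20 with the median of the peaks. For other glucocorticoid genes (-0.15) they were -0.50, -0.064 and -0.0060, and -0.11 with the median of the peaks. Single genes whose interval excluded 1 changed sign 4 times: Fkbp5 was -0.18 with the table total, Per1 0.00 (0.0035) after loess, and Per3 0.53 without peaks shared with another gene and 0.30 with the median of its peaks. Of 120 gene values under alternatives 86 moved by less than their counting error, 30 by more, and 4 changed sign as given. Sign changes of Clock and Dbp, whose intervals included 1, are counted among the 86 and the 30. Clock was -0.17 with the table total. Dbp was 0.040 with the nuclear total, 0.11 after loess, 0.097 without shared peaks and 0.084 with the median of its peaks. Depth limits single weak peaks most, and no alternative supplies the missing spread between animals.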
